A study of Mus musculus with 58 samples.

Results

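The genes described here encode the nuclear-encoded subunits of respiratory chain complexes I to IV, as measured in sorted mouse microglia. They were taken by symbol: Nduf followed by a, b, c, s or v and a number, the 4 Sdh genes, Uqcr genes, and Cox4 to Cox8 genes, without pseudogenes and with a mean of at least 10 counts in the table used. In the table of mice of different ages 67 symbols matched and 61 of 24940 listed genes were kept, namely 36 of complex I, 4 of complex II, 8 of complex III and 13 of complex IV. Of the 6 that fell below the minimum, Cox8b had a mean of 7.55 counts, Cox7a1 6.55, Cox4i2 0.773 and Ndufa4l2 0.045, and Cox8c and Cox7b2 had none. Just above the minimum stood Cox7c with 14.3, Cox6b2 with 18.6 and Ndufb4 with 21.0. The symbol rule leaves out Ndufab1, Cyc1 and Cycs, and places Ndufa4, now regarded as a subunit of complex IV, in complex I.

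All mice were C57BL/6, and SgshKO animals lack the lysosomal enzyme sulfamidase, which takes part in the breakdown of heparan sulfate. Microglia were isolated from forebrain by a CD11b+, CD45low, CX3CR1+ sort and profiled by polyA RNA-seq in 58 libraries of 13 groups. The age table holds wild-type (WT) and SgshKO libraries from 3 weeks (3 and 4 libraries), 4 months (2 and 2) and 8 months (4 and 7). In the WT ASO table, WT mice had received PBS, a non-targeting antisense oligonucleotide (ntc) or an oligonucleotide (ASO) against Mitf, Tfeb or Tfe3, with 4 libraries each. In the SgshKO ASO table, SgshKO mice had received ntc or Mitf and Tfe3 ASOs combined, with 8 libraries each. Injected mice received 1 intracerebroventricular dose and were harvested after 14 days, so all groups of the ASO tables, PBS included, share the injection. Nothing in the labels says that libraries came from separate animals, so p-values measure the spread between libraries, which may be technical. The ages of the injected mice and the sex of any mouse were not given.

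Complexes I to IV sit in the inner mitochondrial membrane. Complex I takes electrons from NADH and complex II from succinate, complex III passes them from ubiquinol to cytochrome c, and complex IV hands them to oxygen, while complexes I, III and IV pump the protons that drive ATP synthase. Complex II is wholly nuclear-encoded, whereas the other complexes combine nuclear-encoded subunits with core subunits made from mitochondrial DNA. Microglia shift between oxidative and glycolytic metabolism when activated, and MITF, TFEB and TFE3, the factors targeted by the ASOs, are related E-box-binding regulators of lysosomal and mitochondrial genes.

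Many promoters of these genes are known to carry sites for the activators NRF1 and GABP (an ETS factor) and for YY1. Promoters of 51 of the 64 genes kept in any table were found in RefSeq (GRCm38.p6; 250 bases before to 50 bases after the start), and motifs were searched on both strands as exact letters. The following 250 bases upstream of the RefSeq start are shown, 1 promoter for each complex, with the NRF1 motif (GCATGCGC, Ndufa6) or the ETS motif (CCGGAAG, here as CTTCCGG on the opposite strand) in capitals. Among genes called higher in SgshKO at the oldest age (adjusted p under 0.05), those with the largest increase and either motif were taken. Because these windows were chosen by result, they do not show how often a motif goes with an increase. They are chr15:82354292-82354541 (Ndufa6), chr9:50603850-50604099 (Sdhd), chr4:116075071-116075320 (Uqcrh) and chr7:30626115-30626364 (Cox6b1), all on the minus strand and written 5′ to 3′ towards the gene. The last 37 bases of the Cox6b1 window, its capitals included, lie inside the transcript that the age table lists for Cox6b1 (chr7:30616974-30626151), whereas the other windows shown end where the listed transcript starts.
Ndufa6: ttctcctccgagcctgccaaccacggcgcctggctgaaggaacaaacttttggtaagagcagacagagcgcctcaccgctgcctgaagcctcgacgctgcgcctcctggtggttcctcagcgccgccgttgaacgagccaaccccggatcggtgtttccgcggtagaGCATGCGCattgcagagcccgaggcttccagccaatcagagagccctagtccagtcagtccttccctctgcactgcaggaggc
Sdhd: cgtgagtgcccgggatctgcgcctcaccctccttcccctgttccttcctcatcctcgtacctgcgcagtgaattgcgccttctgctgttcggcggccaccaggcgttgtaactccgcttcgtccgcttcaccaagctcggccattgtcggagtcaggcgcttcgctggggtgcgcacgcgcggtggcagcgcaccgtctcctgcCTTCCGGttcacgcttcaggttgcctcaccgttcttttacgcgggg
Uqcrh: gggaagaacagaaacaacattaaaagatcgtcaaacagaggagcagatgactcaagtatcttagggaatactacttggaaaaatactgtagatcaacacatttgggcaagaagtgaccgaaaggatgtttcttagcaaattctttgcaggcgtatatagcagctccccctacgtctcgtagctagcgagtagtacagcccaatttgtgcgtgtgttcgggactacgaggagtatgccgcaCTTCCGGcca
Cox6b1: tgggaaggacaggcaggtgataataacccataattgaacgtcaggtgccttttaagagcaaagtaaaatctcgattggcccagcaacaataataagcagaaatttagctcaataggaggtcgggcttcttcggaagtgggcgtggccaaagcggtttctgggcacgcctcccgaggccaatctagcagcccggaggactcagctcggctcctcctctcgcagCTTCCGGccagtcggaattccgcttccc

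The NRF1 motif was present in 7 of the 51 promoters (13.7%), against 3.05% of 27025 gene symbols with a promoter, and the ETS motif in 11 (21.6%), against 9.93%. The YY1 motif (AAGATGGC) was present in 7 (13.7%), against 3.19%. The E-box CACGTG, the core of the element that MITF, TFEB and TFE3 bind, was present in 2 (3.92%), against 8.09%. These promoters, Ndufa7 (chr17:33824322-33824571, plus strand) and Ndufv1 (chr19:4012756-4013005, minus strand), are shown because they are the ones in which an E-box was found, with the E-box in capitals. A match of letters is a description of these windows and not of binding.
Ndufa7: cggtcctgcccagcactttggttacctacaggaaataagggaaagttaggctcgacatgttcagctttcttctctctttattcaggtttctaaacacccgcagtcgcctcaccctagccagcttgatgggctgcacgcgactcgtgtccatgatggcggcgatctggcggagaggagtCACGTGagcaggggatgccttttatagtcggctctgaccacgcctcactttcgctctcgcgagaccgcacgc
Ndufv1: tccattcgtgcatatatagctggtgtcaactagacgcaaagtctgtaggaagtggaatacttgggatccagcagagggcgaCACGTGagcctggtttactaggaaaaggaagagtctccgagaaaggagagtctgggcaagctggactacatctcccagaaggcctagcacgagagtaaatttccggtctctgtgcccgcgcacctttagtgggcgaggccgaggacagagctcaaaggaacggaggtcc

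Library totals ran from 8191508 to 27106584 counts in the age table, from 14372015 to 30378870 in the WT ASO table and from 12517838 to 30431437 in the SgshKO ASO table. Levels are given as CPM, the counts of a gene divided by the TMM-scaled library total and expressed per 1e6 counts. Sgsh, the targeted gene, ranged from 31.8 to 59.4 CPM in WT and from 20.1 to 34.5 CPM in SgshKO libraries at 8 months (log2 fold change −0.74, edgeR adjusted p = 0.00058), and its change at 3 weeks (−0.32) and 4 months (−0.40) did not pass the threshold. Each ASO lowered its own target: log2 fold changes were −4.81 for Mitf, −3.24 for Tfeb and −2.38 for Tfe3 in WT mice, and −2.26 for Mitf and −1.08 for Tfe3 with the combination. The sum of 10 microglial markers was 41555 to 50483 CPM in WT and 33495 to 36833 CPM in SgshKO libraries at 8 months. The sum of 8 neutrophil markers was 2.05 to 3.67 CPM in WT at 8 months, against 432 to 5874 CPM in SgshKO at 8 months and 3018 to 15013 CPM in SgshKO at 4 months. Monocyte markers summed to 10.6 to 12.4 and 49.1 to 459 CPM, and border macrophage markers to 15.9 to 32.1 and 56.7 to 105 CPM, in WT and SgshKO at 8 months. Endothelial markers summed to 307 to 361 and 381 to 528 CPM, oligodendrocyte markers to 117 to 148 and 145 to 160 CPM, and astrocyte markers to 287 to 401 and 177 to 296 CPM, in the same order. Neuronal markers stayed at or below 6.49 CPM in the 4-month and 8-month libraries. By Xist and Ddx3y, all 3-week libraries were Xist-high, all WT 8-month libraries were Ddx3y-high and 3 of 7 SgshKO 8-month libraries (replicates 3, 6 and 7) were Xist-high, so in WT sex cannot be told apart from age between 3 weeks and 8 months.

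The first question was how much of the microglial transcript pool these 61 genes take in each genotype and age. Their share of all counts was 0.132 to 0.145% in WT at 3 weeks, 0.148 to 0.153% at 4 months and 0.135 to 0.152% at 8 months. In SgshKO it was 0.125 to 0.176% at 3 weeks, 0.191 to 0.238% at 4 months and 0.184 to 0.243% at 8 months. The genotypes overlapped at 3 weeks, where SgshKO replicate 1 was the lowest library of either genotype, and did not overlap at 4 or 8 months. Among the SgshKO libraries at 8 months, replicate 6, with the lowest neutrophil sum (432 CPM), had a share of 0.203%. Replicate 7 (751 CPM) had the highest share, 0.243%, and replicate 3, with the highest neutrophil sum (5874 CPM), had 0.230%. All 7 stood above every WT library. At 4 months, SgshKO replicate 1 had a neutrophil sum of 3018 CPM and a share of 0.191%, and replicate 2 had 15013 CPM and 0.238%. The part of other cells in the difference was not tested. In bulk libraries, a change in the mix of cells and a change in transcripts per cell cannot be told apart.

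**Figure D1:**
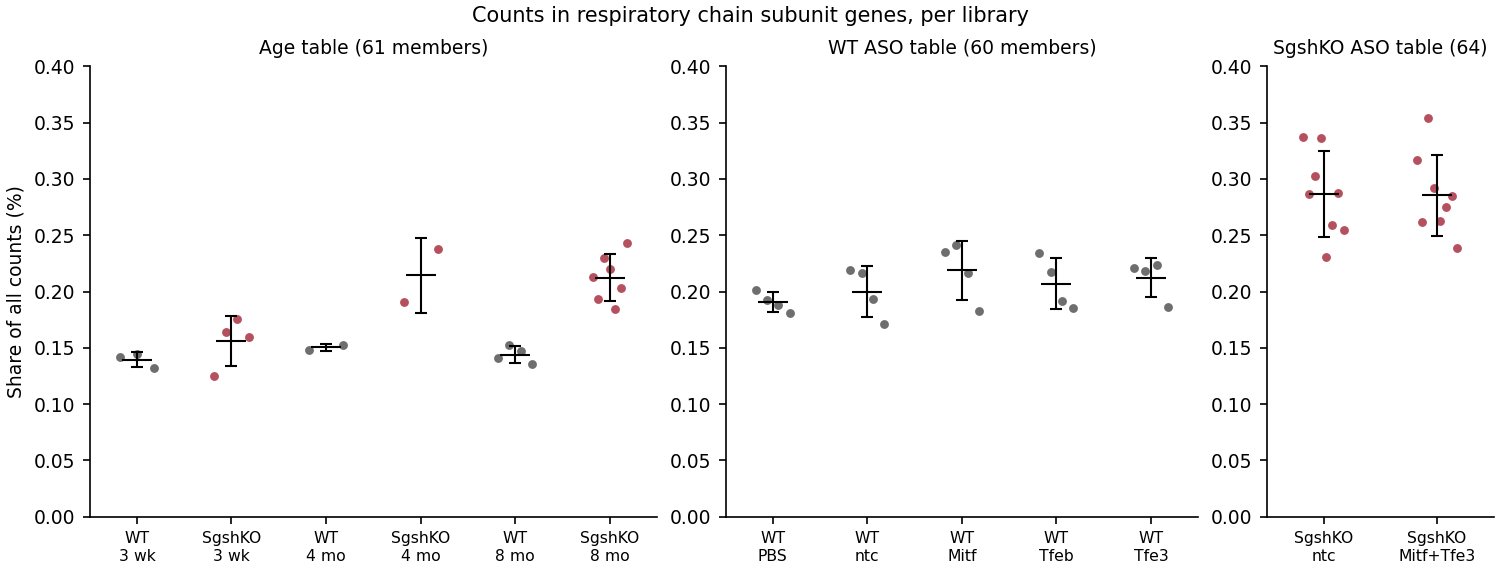
Share of each library's counts taken by the 61 genes (percent, vertical axis) in WT and SgshKO microglia at 3 weeks, 4 months and 8 months, 1 point per library with the group mean and SD. Further panels show the WT ASO libraries (60 genes) and the SgshKO ASO libraries (64 genes). SgshKO libraries overlap WT at 3 weeks (0.125 to 0.176% against 0.132 to 0.145%) and lie above them at 4 months and 8 months.

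At 8 months 46 of the 61 genes were higher in SgshKO and none was lower (edgeR quasi-likelihood F test, Benjamini-Hochberg adjusted p under 0.05), against 21.6% of all 14309 genes tested that were higher and 18.9% that were lower. The median log2 fold change was 0.69, against 0.02 over all genes tested. By complex, 25 of 36 genes of complex I were higher (median 0.54), 3 of 4 of complex II (0.36), 7 of 8 of complex III (0.77) and 11 of 13 of complex IV (1.08). For 28 of the 61, every SgshKO library stood above every WT library, against 13.8% of all genes. When the trend of counts with transcript length was removed in each library, 23 of the 61 were called (9, 1, 3 and 10 by complex) and the median was 0.26. In that fit 2910 of all 14309 genes were higher and 2835 lower. Without the 3 Xist-high libraries 35 were called, and 2669 of all 14219 genes tested were higher and 2435 lower. On log2(TPM + 1), where lower calls outnumbered higher calls over all genes (4066 against 2053 of 12021, with an all-gene median of −0.14, against 2703 and 3090 by counts), 39 of the members were higher and none lower, with a median of 0.48.

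In complex I the largest increases were in small accessory subunits, which surround the catalytic core. Ndufa1, an X-linked accessory subunit of the membrane arm (NM_019443, mm10 chrX:37187589-37191238), measured 5.40, 4.91, 6.09 and 2.82 CPM in the WT libraries at 8 months, and 13.1, 18.2 and 21.5 CPM (lowest, median and highest of 7) in SgshKO. The groups did not overlap, and the 3.68-fold difference (log2 fold change 1.88, SE 0.28, adjusted p = 5.7e-06) was 1.86 on the log2 scale without the 3 Xist-high libraries. At 4 months Ndufa1 was 6.01 and 6.39 CPM in WT and 10.9 and 16.4 CPM in SgshKO, without overlap but short of the threshold (adjusted p = 0.064). At 3 weeks it was 4.87, 5.11 and 1.68 CPM in WT and 2.51, 6.28, 5.90 and 4.47 CPM in SgshKO, and the groups overlapped. Ndufc1 (log2 fold change 1.07), Ndufa2 (1.06), Ndufa13 (0.99), also known as GRIM-19, and Ndufb9 (0.96) followed at 8 months. Ndufc1 and Ndufa2 had SEs of 0.30 and groups that overlapped, whereas Ndufa13 and Ndufb9 did not overlap.

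The core subunits of complex I, among them those that bind the flavin and the iron-sulfur clusters, showed smaller values. Among those described here, Ndufs8 (0.39) and Ndufv2 (0.32) were higher. Ndufs7 (0.23), Ndufv1 (0.05), Ndufs1 (−0.02) and Ndufs3 (−0.12) were not called. Ndufs1, the largest of them, lay at 48.8 to 50.3 CPM in WT and 42.3 to 55.2 CPM in SgshKO, so its groups overlapped entirely. Accessory genes of complex I that missed the threshold were Ndufs5 (0.47), Ndufb6 (0.43), Ndufb3 (0.39), Ndufa12 (0.35), Ndufs4 (0.24) and Ndufb4 (−0.15). Ndufs5 and Ndufb4 had SEs of 0.59 and 0.65, so a change near the median of 0.69 was not detectable for them.

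Complex II, which also works in the tricarboxylic acid (TCA) cycle as succinate dehydrogenase, showed small and uniform differences of 0.32 to 0.42. Sdha, its flavoprotein (NM_023281, chr13:74322255-74350240), measured 128, 138, 136 and 122 CPM in WT at 8 months and 167, 175 and 185 CPM (lowest, median and highest) in SgshKO. The groups did not overlap (log2 fold change 0.42, SE 0.06, adjusted p = 7.0e-06). It was 126 and 136 CPM in WT and 152 and 169 CPM in SgshKO at 4 months, and 122, 126 and 120 against 128, 148, 154 and 144 CPM at 3 weeks, again without overlap at either age. The 3-week difference of 0.22 did not pass the threshold (adjusted p = 0.063). The membrane anchors Sdhc (0.39) and Sdhd (0.32) were higher at 8 months, and the iron-sulfur subunit Sdhb (0.34, adjusted p = 0.0504) was just short of the threshold. Sdha has a long transcript (2842 bases), and its difference with the length trend removed was 0.41.

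In complex III the largest increase was in Uqcrh, the hinge protein near cytochrome c1 (NM_025641, chr4:116066965-116075070), whose promoter is printed above. It measured 13.5, 17.5, 18.9 and 14.4 CPM in WT at 8 months and 29.3, 41.5 and 47.7 CPM (lowest, median and highest) in SgshKO, a 2.48-fold difference without overlap (log2 fold change 1.31, SE 0.15, adjusted p = 1.8e-07). At 4 months it was 18.6 and 18.1 CPM in WT and 46.5 and 53.0 CPM in SgshKO. At 3 weeks it was 17.6, 20.5 and 15.8 CPM in WT and 14.0, 25.7, 23.1 and 22.3 CPM in SgshKO, and replicate 1 of SgshKO fell below every WT library. Its 8-month difference was 0.80 with the length trend removed. The small subunits Uqcr11 (0.96), Uqcrq (0.88), Uqcr10 (0.85) and Uqcrb (0.69) were higher as well. Uqcrfs1, the Rieske iron-sulfur protein (0.43), and the core protein Uqcrc2 (0.22) rose less, and the core protein Uqcrc1 (0.18) was not called. The Uqcrb call was lost in 7 of the 11 fits that left out 1 library.

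Complex IV had the highest median, 1.08, and the largest single change. Cox6a2 (NM_009943, chr7:128205435-128206366), the isoform of subunit 6a best known from heart and skeletal muscle, measured 1.45, 0.535, 1.29 and 1.06 CPM in WT at 8 months and 9.84, 13.1 and 17.5 CPM (lowest, median and highest) in SgshKO. The groups were far apart, with a 12.6-fold difference (log2 fold change 3.66, SE 0.31, adjusted p = 9.8e-10). At 4 months it was 2.12 and 0.934 CPM in WT and 11.3 and 11.2 CPM in SgshKO (log2 fold change 2.92). At 3 weeks it was 1.18, 1.02 and 1.23 CPM in WT and 1.09, 2.88, 2.52 and 2.86 CPM in SgshKO, with a difference of 1.01 that did not pass the threshold (adjusted p = 0.087). The widely expressed isoform Cox6a1 was still the more abundant per length at 8 months, at 179 ± 19.3 TPM against 29.4 ± 5.84 TPM for Cox6a2 in SgshKO (SD, n = 7) and 92.2 ± 9.85 against 2.59 ± 0.956 TPM in WT (SD, n = 4).

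Cox6a2 shares part of its position with the neighbouring gene Itgad. The last annotated bases of Cox6a2 overlap those of Itgad on the opposite strand (chr7:128205435-128205503), and Itgad did not exceed 3.66 CPM in any age library. Itgax, an integrin gene of activated microglia, lies on the same chromosome (chr7:128129568-128150657) and shares no base with Cox6a2. Itgax was 15.2 to 25.9 CPM in WT and 177 to 491 CPM in SgshKO at 8 months (log2 fold change 4.02), and 1.12 and 3.76 on the log2 scale at 3 weeks and 4 months. The strand used in counting was not given in the sources used here, and the part of neighbouring transcripts in the Cox6a2 counts was not tested.

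The ubiquitous isoforms of complex IV rose too. Cox4i1, the regulatory subunit that is nearly the only Cox4 isoform here, measured 36.3, 43.8, 49.9 and 37.4 CPM in WT at 8 months and 83.1, 107 and 140 CPM (lowest, median and highest) in SgshKO (log2 fold change 1.39, SE 0.15, adjusted p = 3.3e-08). The groups did not overlap. Cox6c (1.20), Cox6b1 (1.11), Cox6a1 (1.10), Cox8a (1.08), Cox5b (1.08), Cox7a2l (1.01), Cox7a2 (0.88), Cox7b (0.71) and Cox5a (0.59) were higher. Ndufa4 (0.70) was higher as well. Cox6b2, the testis isoform of subunit 6b, was at most 1.89 CPM in either genotype at 8 months and not called (2.84-fold, adjusted p = 0.070). Cox7c (−0.40) had a mean of 14.3 counts in the age table, with an SE of 0.60.

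**Figure D2:**
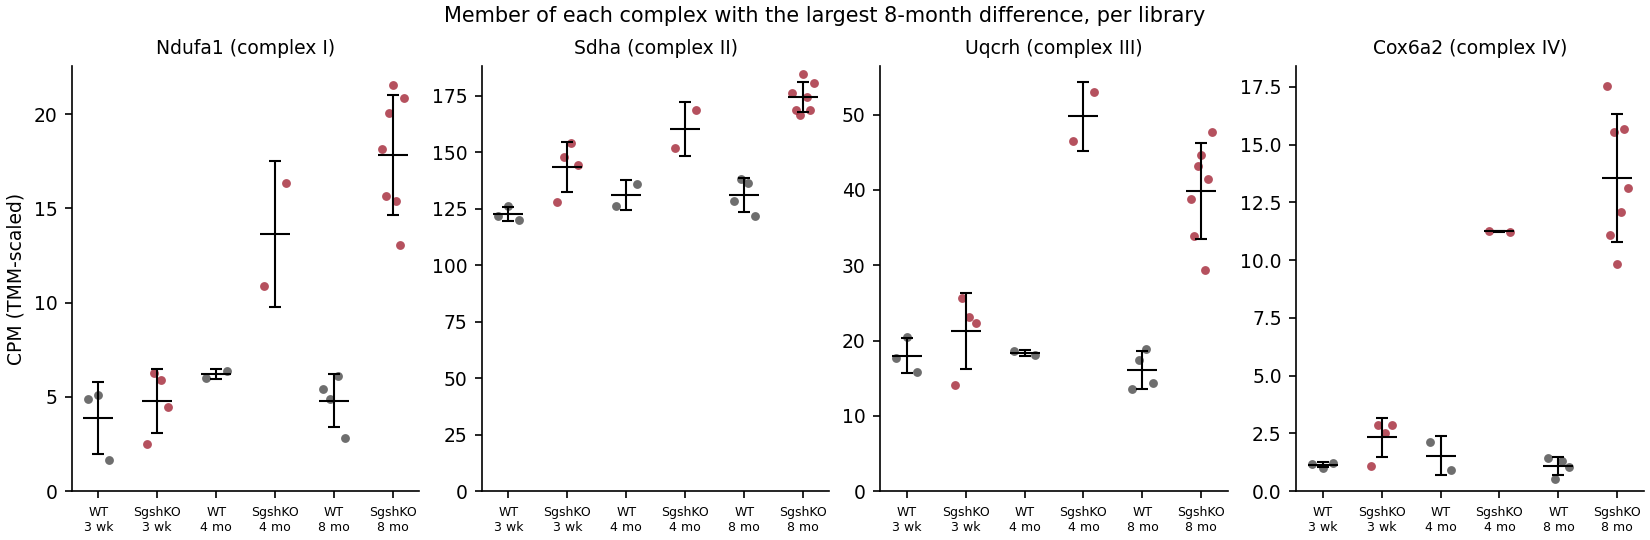
CPM of Ndufa1, Sdha, Uqcrh and Cox6a2, the gene of each complex with the largest called change at 8 months, in every age library, by genotype and age. SgshKO libraries lie above all WT libraries of the same age at 4 and 8 months for the 4 genes, while at 3 weeks only Sdha does not overlap.

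Across ages, 1 of the 61 genes was higher in SgshKO at 3 weeks (5.31% of all genes were higher and 3.72% lower), 19 at 4 months (10.3% higher and 9.26% lower) and 46 at 8 months, and none was lower at any age. The gene called at 3 weeks was Cox7a2l (0.44, SE 0.13, adjusted p = 0.0286), while 8 of the 61 had an unadjusted p under 0.05 (19.1% of all genes did), and the median was 0.20. Without replicate 1 of SgshKO 6 genes were called at 3 weeks, and without either of 4 other libraries none was. The 19 genes at 4 months were 6 of complex I, 2 of complex II, 3 of complex III and 8 of complex IV, led by Cox6a2, Uqcrh (1.43), Cox6c (1.29) and Cox8a (1.12), and the median was 0.56. All 19 were also called at 8 months, 27 genes were called at 8 months alone and 15 at no age. With 2 libraries a group, 38 of the 61 had both SgshKO libraries above both WT libraries at 4 months, against 30.5% of all genes. Leaving out SgshKO replicate 2 or WT replicate 1 reduced the 4-month count to 4 and 11. SgshKO replicate 2 is the 4-month library with the higher neutrophil sum (15013 CPM), whose part in the count was not tested.

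**Figure D3:**
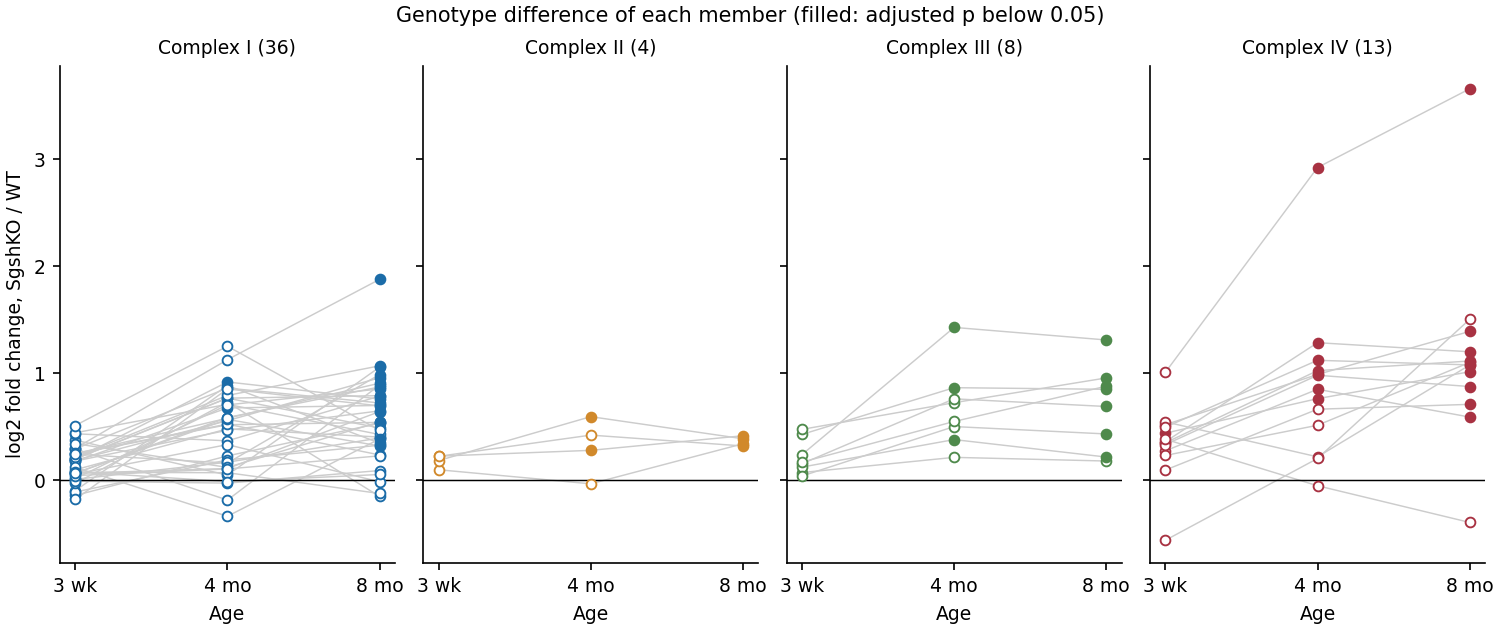
Log2 fold change of SgshKO against WT (vertical axis) of each of the 61 genes at 3 weeks, 4 months and 8 months, by complex. Filled points are genes past the adjusted p threshold. The medians over all 61 genes are 0.20, 0.56 and 0.69.

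Whether the genotype effect itself differed between ages was tested as an interaction. From 3 weeks to 8 months it grew for 9 of the 61 (5.98% of all genes): Cox6a2 by 2.65, Ndufa1 by 1.58, Uqcrh by 1.07, Cox4i1 and Cox6a1 by 0.87 each, Cox6b1 by 0.77, Ndufb8 by 0.58, Cox7a2l by 0.57 and Ndufa9 by 0.44 on the log2 scale. It shrank for none, against 3.26% of all genes. Complex II had no such gene. From 3 weeks to 4 months it grew for Uqcrh (1.19, SE 0.30, adjusted p = 0.031; 1.63% of all genes; lost without either WT library at 4 months, SgshKO replicate 2 at 4 months, or WT replicate 1 or 2 at 3 weeks), and from 4 to 8 months for none (0.391% of all genes in either direction, and 4 of the 61 at an unadjusted p under 0.05, against 11.5% of all genes). The count of 9 was 5 without the Xist-high libraries or without SgshKO replicate 1 at 3 weeks, and 4 without WT replicate 1 or 2 at 3 weeks. All 3-week libraries of both genotypes were Xist-high and all WT 8-month libraries Ddx3y-high. A change of the genotype effect from 3 weeks to 8 months therefore cannot be told apart from a change with sex. Leaving out the Xist-high SgshKO libraries made every 8-month library Ddx3y-high.

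Within WT, none of the 61 genes differed between 8 months and 3 weeks by edgeR or by DESeq2 (7.65% of all genes did by edgeR), and 2 of the 61 had an unadjusted p under 0.05 (20.8% of all genes did). The median difference was 0.01. Within SgshKO, 34 were higher at 8 months than at 3 weeks and none was lower (15.5% of all genes were higher and 15.1% lower), with 18, 3, 3 and 10 by complex. Cox6a2 (2.55), Ndufa1 (1.90), Ndufa5 (0.96) and Cox6c (0.95) changed most. This count was 20 without the Xist-high libraries, 18 without SgshKO replicate 1 at 3 weeks and 13 with the length trend removed. Over all genes, 1727 of 14219 were higher without the Xist-high libraries and 2085 of 14309 with the length trend removed. Xist-high libraries were 4 of 4 at 3 weeks and 3 of 7 at 8 months.

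Length was examined because most of these transcripts are short. Over the 61 genes the 8-month difference and log2 transcript length had a Pearson r of −0.36 and a Spearman rho of −0.49, a description over genes that share the same libraries. Of the 41 genes under 1000 bases 32 were higher (median 0.79), and of the 20 longer ones 14 (0.36). Among all other genes, without those of cytosolic ribosomal proteins, 26.3% of the shorter were higher (median 0.27) and 20.6% of the longer (0.00). Both length classes of respiratory chain genes had larger medians than these other genes of the same class. The part of transcript length in the 8-month difference was not tested, and the fragment sizes of the libraries were not examined.

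**Figure D4:**
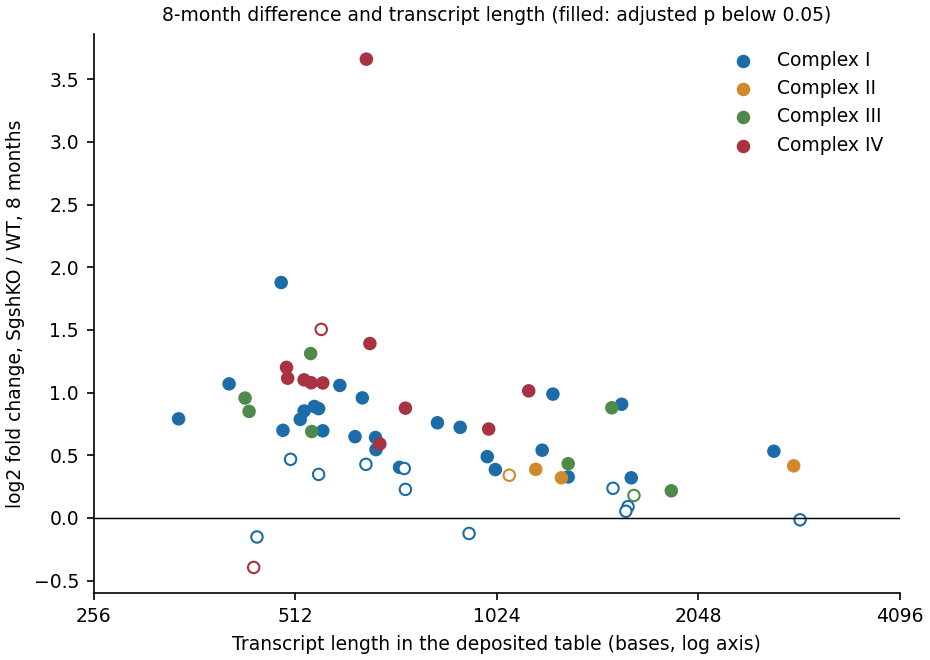
Log2 fold change at 8 months (vertical axis) against transcript length in bases (log axis) for the 61 genes, coloured by complex. Filled points are genes past the adjusted p threshold. The median is 0.79 for the 41 genes under 1000 bases and 0.36 for the 20 longer ones, against 0.27 and 0.00 for other genes, which are not drawn.

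Related gene groups were listed beside them at 8 months, when 21.6% of all genes were higher and 18.9% lower. Of 13 subunits of ATP synthase, which uses the proton gradient, 12 were higher and none lower, led by Atp5e (1.18), and Atp5g1 (0.42) was not called. Of 80 cytosolic ribosomal protein genes 55 were higher and 1 lower (median 1.22), and of 76 mitochondrial ribosomal protein genes 14 were higher and none lower (0.17). Among assembly factors, 2 of 15 for complex I were higher (Ecsit 0.60, Ndufaf3 0.48) and 1 was lower (Foxred1 −0.32). For complex IV 5 of 21 were higher, led by the copper chaperone Cox17 (1.10), and 1 was lower (Lrpprc −0.22). Lyrm7, a chaperone of the Rieske protein, was the largest of 2 higher among 6 for complex III (2.20), and Sdhaf4 (0.95) was the 1 of 4 for complex II. Of 14 TCA cycle genes 6 were higher, led by Ogdh (0.56), and 1 was lower, Idh2 (−0.75).

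Of 15 regulators of mitochondrial genes, 2 were higher at 8 months and 4 lower, against 21.6% and 18.9% of all genes. Hif1a, which drives the response to low oxygen, was higher at 3 weeks (1.09), 4 months (1.46) and 8 months (1.51), and the coactivator Ppargc1b was higher at 8 months (1.20). Nrf1 (−0.42), Gabpb1 (−0.34), Gabpb2 (−0.29) and the mitochondrial RNA polymerase gene Polrmt (−0.39) were lower. Ppargc1a (0.27), Gabpa (−0.15), Tfam (−0.16), Esrra (−0.12), Yy1 (−0.11) and Myc (−0.05) were not called. Genes whose promoter held an NRF1 motif were higher in 5 of 7 cases (median 0.53), and those without in 32 of 43 (0.65). For the ETS motif it was 8 of 11 (median 0.85) and 29 of 39 (0.64). For the YY1 motif it was 5 of 7 (0.64) and 32 of 43 (0.65). Of the 2 genes with an E-box, Ndufa7 (0.79) was called and Ndufv1 was not.

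The ASO libraries asked whether lowering MITF family transcripts changes these genes. In WT mice 60 of the genes were kept (37, 4, 8 and 11 by complex). The 3 ASO comparisons and ntc against PBS share the ntc libraries. With the Mitf ASO 9 of 60 were higher than with ntc and none lower (5.77% of all 10277 genes were higher and 5.21% lower), and the median was 0.16. Uqcr10 (0.46), Uqcrh (0.35), Ndufa10 (0.33), Cox4i1 (0.31), Cox6b1 (0.31), Cox7a2l (0.29), Cox6a1 (0.28), Cox8a (0.27) and Sdha (0.17) made up the 9, so 5 belong to complex IV. All 9 were among the 46 higher in SgshKO at 8 months (19.6% of those), where 75.4% of the 61 genes were called. Over all genes, 490 of the 577 higher with the Mitf ASO and tested in the age table (84.9%) were also higher in SgshKO at 8 months, against 21.7% of the 9868 genes tested in both tables. The sum of the 10 microglial markers was 67173 to 71106 CPM with ntc and 62756 to 66539 CPM with the Mitf ASO, without overlap. The sum of the 2 endothelial markers listed of 6 was 372 to 418 and 403 to 444 CPM, higher with the Mitf ASO in each of the 4 same-numbered pairs, and their part in the result was not tested. Mrc1, the 1 border macrophage marker listed of 6, was 28.9 to 49.3 and 39.1 to 56.2 CPM, and no neutrophil marker was listed in that table.

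Ndufa10, an accessory subunit of complex I, measured 38.3, 34.4, 36.3 and 28.0 CPM in ntc replicates 1 to 4 and 48.1, 40.3, 40.7 and 43.0 CPM with the Mitf ASO (adjusted p = 0.0060). Sdha measured 145, 158, 167 and 163 CPM with ntc and 169, 183, 186 and 176 CPM with the Mitf ASO (adjusted p = 0.019). Neither gene's groups overlapped. Uqcr10 measured 9.93, 11.5, 10.8 and 7.78 CPM with ntc and 10.5 to 16.3 CPM with the Mitf ASO (adjusted p = 0.032), and Cox4i1 94.7, 96.3, 83.2 and 67.7 against 118, 117, 116 and 75.0 CPM (adjusted p = 0.018). For these 2 genes the groups overlapped, while the Mitf ASO library was the higher in each of the 4 same-numbered pairs. The count of 9 was 0 without the replicate block, where 147 of all 10277 genes were higher and 64 lower. It was 4 of 60 with the length trend removed, close to the share of all genes, of which 599 were higher and 435 lower. It was between 1 (without Mitf replicate 2) and 11 when 1 library was left out. It was 3 without ntc replicate 4, 4 without ntc replicate 1, and 5 without Mitf replicate 1, Mitf replicate 3 or ntc replicate 3.

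With the Tfeb ASO none of the 60 was called by edgeR or by DESeq2 (0.778% of all genes were), 6 of the 60 had an unadjusted p under 0.05 (14.4% of all genes did), and the median was 0.08. With the Tfe3 ASO Sdha alone was higher (0.19, SE 0.05, adjusted p = 0.030; 1.46% of all genes), at 178, 178, 182 and 184 CPM, and the median was 0.12. This call was lost without the replicate block and in 7 of the 8 fits without 1 library. Ntc against PBS gave no call among these or any other genes by edgeR (0% of all genes), 6 of the 60 at an unadjusted p under 0.05 (4.04% of all genes), and a median of 0.09. The 3 ASOs were not compared with each other. Of 13 transcripts made from mitochondrial DNA, mt-Atp6 (0.35) was higher with the Mitf ASO, and of 78 cytosolic ribosomal protein genes 39 were (median 0.27), against 5.77% of all genes.

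In SgshKO mice the combined Mitf and Tfe3 ASOs changed 2 of 64 genes. Ndufs8, a core iron-sulfur subunit of complex I, was higher (0.20, SE 0.06, adjusted p = 0.0497; 4.84% of all 10589 genes were higher), at 25.5 to 34.1 CPM with ntc and 29.3 to 39.8 CPM with the combination, so the groups overlapped, and the call was lost in 13 of the 16 fits without 1 library. Cox6a2 was lower in all 16 of those fits as well as over all libraries (−0.70, SE 0.14, adjusted p = 0.0063; 4.5% of all genes were lower). In grp 1 of the titles it measured 7.61, 7.39, 6.28 and 6.81 CPM with ntc and 6.21, 5.75, 4.83 and 5.19 CPM with the combination. In grp 2 it measured 5.29, 6.24, 7.47 and 7.52 CPM with ntc and 3.22, 2.69, 2.70 and 4.32 CPM with the combination. The treatments did not overlap within either grp. Fitted alone, grp 1 gave no call among the 64 genes and grp 2 gave 2. The median over the 64 genes was 0.04, and by complex 0.06, −0.02, 0.04 and 0.00.

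Both genes called with the combination were also called between genotypes at 8 months, where 75.4% of the 61 genes were called. Ndufs8 was higher in both comparisons, and Cox6a2 was higher in SgshKO at 8 months and lower with the combination. Itgax, on the same chromosome as Cox6a2, was lower with the combination (−0.64) and higher with the Mitf ASO in WT (1.04). Hif1a was lower (−0.55) and higher (0.38) in the same order. Neutrophil markers, 6 of which were listed in the SgshKO ASO table, summed to 1.03 to 564 CPM with ntc and 0.996 to 358 CPM with the combination. The other 3 genes printed for 8 months, Ndufa1, Sdha and Uqcrh, were not called with the combination.

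**Figure D5:**
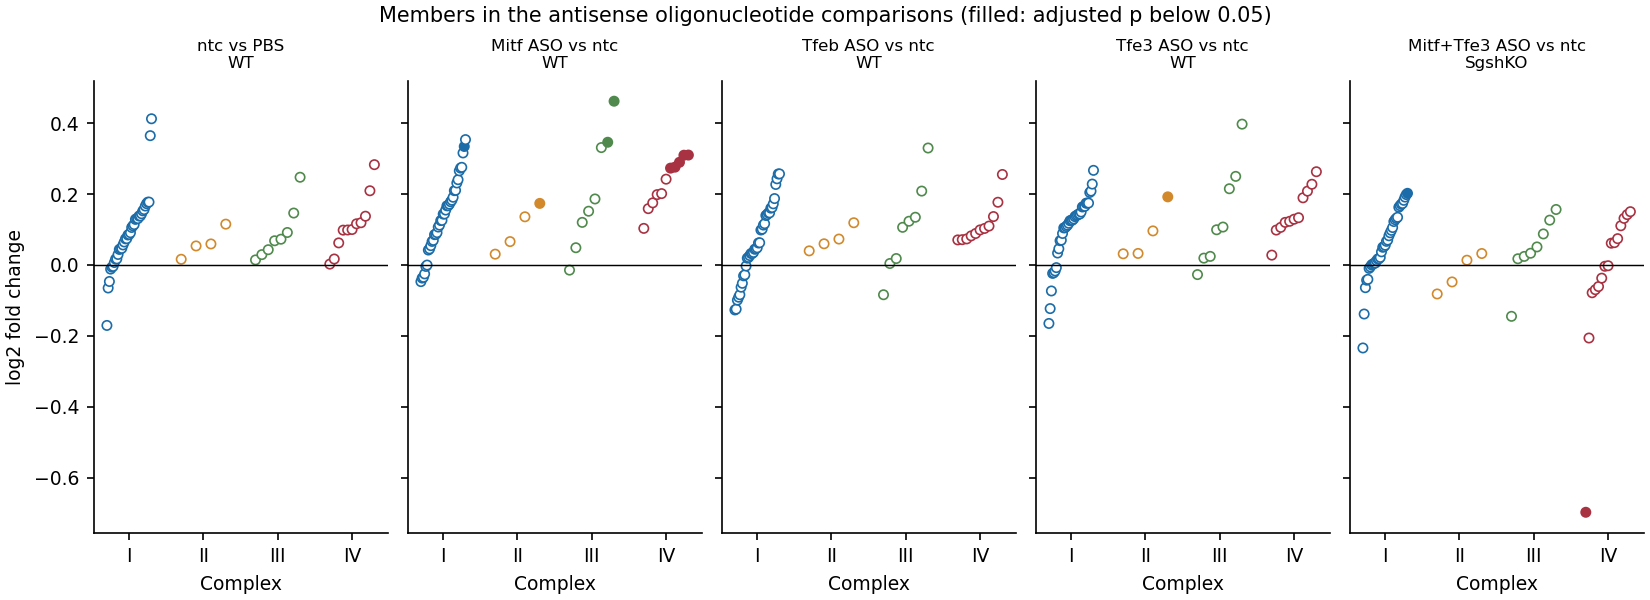
Log2 fold change of each respiratory chain gene (vertical axis) by complex. Panels show ntc against PBS in WT, then the Mitf, Tfeb and Tfe3 ASOs in WT and the combined Mitf and Tfe3 ASOs in SgshKO, each against ntc. Filled points are genes past the threshold. The medians over the respiratory chain genes are 0.09, 0.16, 0.08, 0.12 and 0.04, and Cox6a2 is the low point at −0.70 in SgshKO.

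Levels per length in WT at 8 months spanned a wide range. Cox8a (107 TPM), Cox4i1 (98.7 TPM) and Cox6a1 (92.2 TPM) were highest, and Cox6b2 (0.867 TPM), Cox6a2 and Cox7c (3.89 TPM) lowest. Complex II was the most even, with 59.1 to 78.4 TPM over its 4 subunits and a median of 68.2 TPM. Complex I ran from 4.89 to 76.7 TPM (median 28.7), complex III from 13.9 to 74.7 (41.5) and complex IV from 0.867 to 107 (31.0). The tables list different symbols, with Ndufb4c and Cox6c2 in the ASO tables alone, and levels were not compared between them.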

How the data were processed

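RNA was measured by polyA RNA-seq in 58 libraries of sorted mouse microglia, and groups and replicate numbers were taken from the labels. The authors deposited raw counts per gene in 3 tables, TPM for the age table, and, for the ASO tables, per-gene signal that had been normalised and corrected for batch. Per the submitters' processing notes, mm10, STAR 2.5.3a, kallisto 0.44.0, HOMER 4.11, DESeq2 1.36.0 and R 4.2.3 were used. Which tool made which table, and the strand used in counting, are not given in the sources used here. No column of per-sample values was left unused.

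From the raw counts, each table was fitted in 1 model with edgeR 4.0.16 in R 4.3.3 (TMM, filterByExpr, quasi-likelihood F test), with Benjamini-Hochberg adjustment over all genes tested (14309 in the age table, 10277 in the WT ASO table and 10589 in the SgshKO ASO table) and a threshold of 0.05. The model of the age table had 1 mean for each combination of genotype and age, the WT ASO model also the replicate number (grp in the titles) and the SgshKO ASO model also grp. For PBS replicate 4 the title gives grp 4 and the column name grp 3, and the title was followed. Same-numbered WT ASO libraries deviated together (r from 0.122 to 0.64 over 16 pairs), and their block was kept. SE is the absolute log2 fold change divided by the square root of F. The scripts were tested on simulated data.

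Genes named were, at 8 months, up to 5 called in each direction in each complex, up to 4 in each direction elsewhere, the alternative isoforms, core subunits and regulators listed, and the largest called changes of the other gene lists. The Mitf ASO comparison names all 9 called genes, and other genes named beyond this rule were chosen after their values were seen. A gene that the rule names is not reported here. The members and lists were chosen with earlier results of these data known. Alternatives used DESeq2 1.42.0, limma 3.58.1 on log2(TPM + 1), log2(TPM + 0.1) or log2(signal + 1), no filter, other size factors, other blocks, a Ddx3y minus Xist term and the leaving out of each library. Removing the length trend and leaving out the Xist-high libraries were chosen after seeing the data. Counts limit the precision of genes near the minimum mean of 10.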

Additional observations from a re-analysis of the deposited data

Results flagged for a closer look

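Over 85 sets of 4 to 8 libraries of 1 group (the share of counts, the summed level of each complex, and the level of Ndufa1, Sdha, Uqcrh or Cox6a2), 4 held a library that stood apart from the rest, and chance marks about 1 set in 20. With the Tfe3 ASO in WT mice, replicate 4 had a share of 0.186% for the respiratory chain genes, against 0.218 to 0.224% in the other 3 libraries. In the same group the lowest library had 362 CPM for complex II, against 386 to 389 CPM, and 279 CPM for complex III, against 323 to 332 CPM. With the combined ASOs in SgshKO mice, replicate 3 of grp 1 had 545 CPM for complex II, with the other 7 at 452 CPM or more and all below it.

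The genotype effect differed between ages by the interaction test for 9 genes, and between 3 weeks and 8 months age cannot be told apart from sex in it. From 3 weeks to 8 months the difference on the log2 scale was 2.65 for Cox6a2, 1.58 for Ndufa1, 1.07 for Uqcrh, 0.87 for Cox4i1, 0.87 for Cox6a1, 0.77 for Cox6b1, 0.58 for Ndufb8, 0.57 for Cox7a2l and 0.44 for Ndufa9. From 3 weeks to 4 months it was 1.19 for Uqcrh.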

How the results depend on the processing

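Counts of called respiratory chain genes are compared here, and none of the results changed direction where it was called. With the length trend removed, the counts were 23 in place of 46 at 8 months, 2 in place of 1 at 3 weeks, 13 in place of 34 in SgshKO from 3 weeks to 8 months, 1 in place of 0 in WT over the same ages, 4 in place of 9 with the Mitf ASO and 1 in place of 2 with the combination. The 3-week count was 3 with no filter, 4 with DESeq2, 0 on log2(TPM + 1) with no filter and 2 with the Ddx3y minus Xist term. The 4-month minus 3-week count of 1 was 2 with DESeq2, 2 on either TPM scale and 3 on log2(TPM + 1) with no filter, and the 8-month minus 3-week count of 9 was 5 on log2(TPM + 1) with no filter. Without the 3 Xist-high libraries, the counts were 35 at 8 months, 5 for the 8-month minus 3-week effect and 20 in SgshKO from 3 weeks to 8 months. Without the replicate block, the counts were 0 for Mitf and 0 for Tfe3, and Tfe3 gave 2 with DESeq2. The combination gave 1 without the grp term and 0 in grp 1 alone.

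Leaving out 1 library gave 0 to 6 genes at 3 weeks, 4 to 21 at 4 months, 39 to 48 at 8 months, 0 to 1 for 4 months minus 3 weeks, 4 to 11 for 8 months minus 3 weeks, 18 to 37 in SgshKO from 3 weeks to 8 months, 1 to 11 for Mitf, 0 to 1 for Tfe3 and 1 to 3 for the combination. Where this left 1 library in a group, that library was assumed to vary like the other groups. In every alternative run, the 8-month minus 4-month effect, the Tfeb ASO and ntc against PBS had 0 calls. Among named genes called at 8 months, 15 of 25 kept the call in all alternatives, as did 4 of 12 at 4 months, 4 of 9 for the 8-month minus 3-week effect, 3 of 4 in SgshKO across ages and 0 of 9 with the Mitf ASO. Apart from the length trend, which was removed by construction, the cause of these changes was not tested.

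In the age table same-numbered libraries did not deviate together (r from −0.171 to 0.113 at 3 weeks, 0.0289 at 4 months and −0.0598 to 0.0524 at 8 months), and with a replicate block the counts were 1, 17 and 43 at the 3 ages, 6 for 8 months minus 3 weeks and 28 in SgshKO across ages. In the SgshKO ASO table r ran from 0.088 to 0.612 in grp 1 and from 0.0839 to 0.156 in grp 2, and grp with replicate as a block gave 3 calls. Depth limits Cox7c, Cox6b2 and Ndufb4, whose mean counts stand just above the minimum, and members below it were not tested. Sorted-cell purity, sex and RNA kit were not given for each library.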
